A study of Mus musculus with 10 samples.

Results

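Cycling T cells of mouse livers carrying colorectal cancer metastases were taken as barcodes with a productive T cell receptor beta chain (TRB) and at least 2 unique molecular identifiers (UMIs, one per captured RNA molecule) of both Mki67 and Top2a, after a filter of 300 or more detected genes and a mitochondrial share of 15% or less. The rule found 316 cycling cells among 6273 T cells with a beta chain, out of 27707 barcodes past these filters. Droplet RNA and receptor libraries came from 5 livers in 3 groups. The IFNa + aCTLA4 liver (22, n = 1) came from a cohort given IFNa together with a-CTLA-4, an antibody against the inhibitory receptor CTLA-4. The IFNa livers (18 and 23, n = 2) came from mice given a lentiviral vector (LV) for the type I interferon IFNa. The Control livers (11 and 25, n = 2) came from mice given a control LV. Nothing in the labels ties the livers to separate mice, and p-values here describe only how these samples vary, part of which can be technical. Strain, age and sex are not given in the sources used here.

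Dividing T cells copy their DNA with the help of topoisomerase Top2a and of the ribonucleotide reductase subunit Rrm2, and carry the nuclear protein Ki-67 (Mki67) throughout the cycle. CD8 T cells kill target cells, conventional CD4 T cells help other immune cells, and regulatory CD4 T cells, which depend on the transcription factor Foxp3, restrain both. T cells that descend from 1 parent share the beta chain sequence of that parent, so the receptor shows which families of cells were dividing.

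The cycling cells numbered 192 of 3413 T cells in the IFNa + aCTLA4 liver, which is 5.63% (exact 95% binomial interval 4.88 to 6.45). They numbered 30 of 824 in IFNa 18 (3.64%, 2.47 to 5.16) and 50 of 1122 in IFNa 23 (4.46%, 3.33 to 5.83). They numbered 34 of 790 in Control 11 (4.30%, 3.00 to 5.96) and 10 of 124 in Control 25 (8.06%, 3.94 to 14.3). The intervals, here and below, cover counting error only. Control 25 had the highest share from the fewest cells, and the IFNa livers lay on either side of Control 11. The mean share was 4.05% ± 0.577 in IFNa livers and 6.18% ± 2.66 in Control livers (SD, n = 2 each), a difference of -2.14 percentage points (exact permutation test over livers, 2-sided p = 0.667, with 0.333 the smallest p that 2 against 2 allows). Without Control 25 the difference was -0.26 points and without Control 11 it was -4.02. The single IFNa + aCTLA4 liver allows no such test of its share.

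The label was checked with the other 2 marker genes given for it, Birc5, a survival and spindle protein, and Rrm2. UMIs of Birc5 were present in 83.9% of the cycling cells of the IFNa + aCTLA4 liver, in 90% and 82.0% of those of IFNa 18 and 23, and in 70.6% and 90% of those of Control 11 and 25. Among non-cycling T cells the share was at most 2.76% in any liver. The values at the edge of the rule were less clear: of the 41 cycling cells whose lower gene had exactly 2 UMIs, 39.0% had Birc5, against 28.4% of the 109 T cells just outside, with 1 UMI of one gene and 2 or more of the other. Cycling cells held more RNA, with a median of 15866 to 21748 UMIs per liver against 5982 to 7566 in non-cycling T cells. When barcodes were thinned to 3000 UMIs and the rule set at 1 UMI of each gene, those with fewer UMIs were left out. These were 310 T cells of the IFNa + aCTLA4 liver, 62 and 55 of IFNa 18 and 23, and 53 and 3 of Control 11 and 25, all but 1 of them non-cycling. The cycling shares of the rest were 4.74% in the IFNa + aCTLA4 liver, 2.89% and 3.47% in IFNa 18 and 23, and 2.99% and 5.79% in Control 11 and 25.

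Each gene expression library held between 10464216 and 69856071 UMIs, and pairs of libraries shared 0 to 5 barcodes. The cycling cells of a liver summed to between 250873 and 4458268 UMIs. Suspected doublets, defined by at least 2 genes of another cell type with at least 2 UMIs each, by more than 1 TRB contig or by more than 2 TRA contigs, made up 28.5% of cycling cells (90) and 21.5% of non-cycling T cells (1280). They were kept, since the rule does not remove them, and results that change without them are marked. Summed over its 7 genes, the myeloid marker list ran from 765 to 1327 CPM (UMIs scaled to a common library total) in cycling sums and from 1213 to 2476 CPM in non-cycling sums.

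The beta chains of some clonotypes with 2 or more cycling cells are printed because the clonal results name them. The set is not a full ranking. In the IFNa + aCTLA4 liver TRBV17 with TRBJ2-1, which had 7 cycling cells, is left out. In IFNa 18, 1 of the 7 clonotypes with 2 or more cycling cells is shown. A clonotype is a TRB V gene, J gene and CDR3 (the loop of the chain that contacts the antigen) identical in nucleotides within a liver. The sequences are the deposited CDR3 nucleotides, 5′ to 3′; the TRB locus lies on mouse chromosome 6. Capitals mark the centre, where V, D and J segments were joined, and the 12 bases at each end are in lower case.
IFNa + aCTLA4 22, TRBV13-3 with TRBJ2-1: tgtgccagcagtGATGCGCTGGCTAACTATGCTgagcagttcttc
IFNa + aCTLA4 22, TRBV10 with TRBJ2-1: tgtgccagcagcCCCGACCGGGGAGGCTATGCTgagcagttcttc
IFNa + aCTLA4 22, TRBV3 with TRBJ2-5: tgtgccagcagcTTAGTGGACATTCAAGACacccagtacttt
IFNa + aCTLA4 22, TRBV29 with TRBJ2-5: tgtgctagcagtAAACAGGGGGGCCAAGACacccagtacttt
IFNa + aCTLA4 22, TRBV10 with TRBJ2-3: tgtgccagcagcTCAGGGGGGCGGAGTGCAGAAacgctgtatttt
IFNa 18, TRBV23 with TRBJ2-1: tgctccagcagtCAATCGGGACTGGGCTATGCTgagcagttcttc
IFNa 23, TRBV16 with TRBJ2-7: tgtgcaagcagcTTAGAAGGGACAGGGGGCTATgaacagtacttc
IFNa 23, TRBV1 with TRBJ2-7: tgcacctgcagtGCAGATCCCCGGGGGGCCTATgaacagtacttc
Control 11, TRBV5 with TRBJ2-7: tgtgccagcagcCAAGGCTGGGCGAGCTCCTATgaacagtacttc
Control 25, TRBV5 with TRBJ1-1: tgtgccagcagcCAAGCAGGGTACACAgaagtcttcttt

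Pooled over the livers, CD8 cells were the most frequent lineage among cycling T cells, and regulatory CD4 cells the next. Of the 316 pooled cells, 192 came from the IFNa + aCTLA4 liver, and the order differed between livers. A cell was called CD8 with a UMI of Cd8a or Cd8b1 (the chains of the CD8 coreceptor) and none of Cd4 or Foxp3, conventional CD4 with Cd4 and neither Foxp3 nor CD8 chains, and regulatory CD4 with Foxp3 and no CD8 chain. In all, 180 cycling cells were CD8 (57.0%), 54 regulatory CD4 (17.1%) and 32 conventional CD4 (10.1%). Another 45 (14.2%) had Cd4 or Foxp3 together with a CD8 chain, called both below, and 5 (1.58%) had neither. Among the 5957 non-cycling T cells these shares were 49.5%, 9.94%, 18.7%, 6.63% and 15.2% in the same order. Of the cycling cells called both, 16 were suspected doublets. In B cells, which should lack these genes and had median depths of 4207 to 5530 UMIs, 0.27% to 1.75% had a Cd4 UMI, 0% to 3.79% a Cd8a UMI and 0% to 1.46% a Foxp3 UMI, depending on the liver.

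The IFNa + aCTLA4 liver had 127 cycling CD8, 17 regulatory CD4, 18 conventional CD4 and 28 both cells. IFNa 18 had 10, 11, 7 and 1, and IFNa 23 had 24, 16, 2 and 7. Control 11 had 16, 6, 3 and 8, and Control 25 had 3, 4, 2 and 1. Cycling CD8 cells thus outnumbered cycling regulatory cells in the IFNa + aCTLA4 liver, IFNa 23 and Control 11, and not in IFNa 18 or Control 25.

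As a share of all T cells, cycling CD8 cells made up 3.72% of the IFNa + aCTLA4 liver, against 1.21% and 2.14% in the IFNa livers and 2.03% and 2.42% in the Control livers. The value of the IFNa + aCTLA4 liver lay above those of all 4 other livers. In an edgeR quasi-likelihood test of the cell counts over 10 classes (5 lineages, cycling or not), the log2 ratio to IFNa was 1.10 ± 0.43 (standard error, edgeR adjusted p = 0.0645) and to Control 0.83 ± 0.50 (edgeR adjusted p = 0.266). Neither passed the threshold of 0.05, in a fit that assumes the 1 IFNa + aCTLA4 liver to vary like the others. Both passed with barcodes thinned to 3000 UMIs before the lineage call (log2 ratios 1.30 and 0.96) and with a rule of 1 UMI of each gene (1.02 and 1.26). The log2 ratios were 0.80 and 0.84 without IFNa 18, and 1.61 and 0.84 without IFNa 23. Neither passed without suspected doublets, with Cd8a alone as the CD8 marker, or with the T cells of the same lineage as the denominator. Of CD8 cells, 6.49% cycled in the IFNa + aCTLA4 liver. That share lay between those of the Control livers (5.65% and 7.89%) and above those of IFNa 18 and 23 (3.10% and 4.53%).

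Cycling regulatory CD4 cells made up 0.498% of T cells in the IFNa + aCTLA4 liver, against 1.33% and 1.43% in the IFNa livers and 0.759% and 3.23% in the Control livers. The IFNa + aCTLA4 liver had the lowest share. Its log2 ratio to IFNa was -1.46 ± 0.57 (edgeR adjusted p = 0.0645) and to Control -1.19 ± 0.73 (edgeR adjusted p = 0.266), and with a rule of 1 UMI of each gene both passed (-1.68 and -1.79). Of the 10 classes, 10% passed in each of these comparisons, which is 1 class, the non-cycling regulatory cells. These fell in the IFNa + aCTLA4 liver, with 4.31% of T cells there against 15.9% and 10.1% in the IFNa livers (log2 ratio -1.58, edgeR adjusted p = 0.00468) and 22% and 21.8% in the Control livers (-2.35, edgeR adjusted p = 9.7e-05). With the T cells of the same lineage as the denominator, the log2 ratios of cycling regulatory cells were 0.05 to IFNa and 0.99 to Control. For IFNa against Control, 0% of the classes passed, and the cycling classes had log2 ratios of -0.28 for CD8, 0.26 for regulatory CD4 and -0.26 for conventional CD4 (edgeR adjusted p = 0.966 each). The count at an unadjusted p under 0.05 was 1 of the 10, again the non-cycling regulatory cells.

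Set against its own lineage, the regulatory population had the highest mean share of cycling cells of the 3 lineages compared. Cycling cells made up 10.4% of regulatory CD4 cells in the IFNa + aCTLA4 liver, 7.75% and 12.4% in IFNa 18 and 23, and 3.33% and 12.9% in Control 11 and 25. The same shares of CD8 cells were 6.49% in the IFNa + aCTLA4 liver, 3.10% and 4.53% in the IFNa livers and 5.65% and 7.89% in the Control livers. The shares of conventional CD4 cells were 2.81%, then 3.98% and 1.23%, then 2.17% and 7.69% in the same livers. The regulatory share was above the conventional one in 5 of 5 livers and above the CD8 share in 4 of 5, the exception being Control 11. Cells called both, which were left out of that comparison, had cycling shares of 10.4% in the IFNa + aCTLA4 liver, 3.23% and 9.46% in the IFNa livers and 14.0% and 12.5% in the Control livers.

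**Figure D1:**
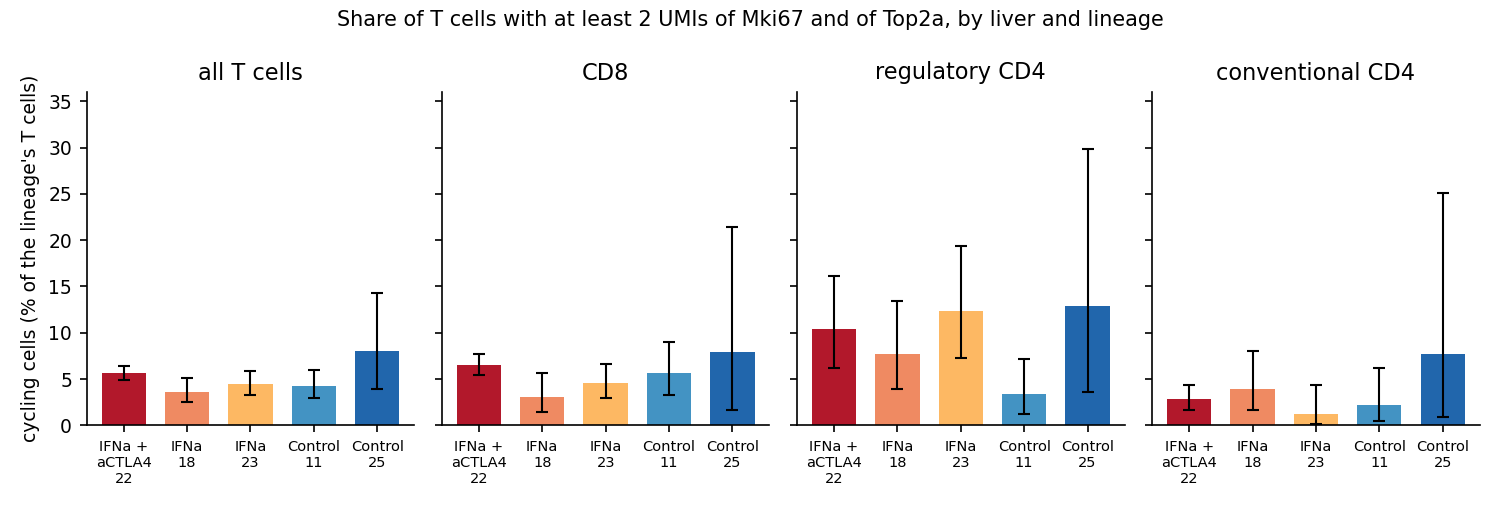
Cycling cells as a percentage of all T cells and of each lineage (y axis) in the 5 livers (x axis); bars are the shares and error bars the exact 95% binomial intervals of the cell counts. Regulatory CD4 cells of IFNa 23 (12.4%) stand above conventional CD4 cells (1.23%) of the same liver, and the Control 25 intervals are the widest.

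The means over the 5 livers were 9.35% ± 3.93 for regulatory, 5.53% ± 1.83 for CD8 and 3.58% ± 2.51 for conventional CD4 cells (SD, n = 5). The regulatory share exceeded the conventional one by 5.77 ± 3.81 points (exact sign-flip permutation test, 2-sided p = 0.0625, the smallest that 5 livers allow, adjusted over 3 lineage pairs 0.1875). It exceeded the CD8 share by 3.82 ± 3.75 points (exact p = 0.125, adjusted 0.1875), and CD8 exceeded conventional CD4 by 1.96 ± 2.14 points, in 4 of 5 livers (exact p = 0.1875, adjusted 0.1875). The coreceptor and the rule are read from the same UMIs, and cycling cells were deeper. After thinning to 3000 UMIs with 1 UMI of each gene, the 3 differences were 1.91, 1.99 and -0.09 points, so the CD8 difference from conventional CD4 changed direction. The thinned regulatory shares were 7.04% in the IFNa + aCTLA4 liver, 6.93% and 10.4% in the IFNa livers and 2.84% and 3.23% in the Control livers. The thinned CD8 shares were 5.51%, then 2.36% and 3.51%, then 4.06% and 5%, and the conventional CD4 shares 2.44%, then 2.34% and 1.44%, then 3.54% and 11.1% in the same livers. The regulatory share was then above both others in the IFNa + aCTLA4 and IFNa livers and below both in the Control livers. The Control order rested on few cycling cells. In Control 11 they were 4 of 141 regulatory, 11 of 271 CD8 and 4 of 113 conventional CD4 cells. In Control 25 they were 1 of 31 (interval 0.08 to 16.7), 2 of 40 and 2 of 18.

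In each liver, a larger share of cycling than of non-cycling cells had a clonal relative outside the cycle. A relative, or sister, is another T cell of the same liver and clonotype that did not meet the rule, so that the count treats both kinds of cell alike. In the IFNa + aCTLA4 liver 143 of 192 cycling cells had a sister (74.5%), against 61.9% of its non-cycling cells. The shares in IFNa 18 were 60.0% of cycling and 32.0% of non-cycling cells, and in IFNa 23 they were 82.0% and 48.4%. In Control 11 they were 50.0% of cycling and 30.0% of non-cycling cells, and in Control 25 they were 40.0% and 10.5%. Cycling cells had the higher share in 5 of 5 livers. The mean was 61.3% ± 17.2 for cycling and 36.6% ± 19.5 for non-cycling cells, a difference of 24.7 ± 8.39 points (SD, n = 5; exact sign-flip permutation test, 2-sided p = 0.0625, the smallest that 5 livers allow).

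By lineage, the difference was 20.2 points among CD8 cells, with cycling cells higher in 4 of 5 livers (exact p = 0.1875). It was 22.2 points among regulatory cells, higher in 2 of 5 livers (exact p = 0.5), and -5.06 points among conventional CD4 cells, higher in 2 of 5 (exact p = 0.6875). The regulatory mean rested on Control 25, where 4 of 4 cycling cells had a sister, against 7.41% of non-cycling ones; without that liver it was 4.64 points. The conventional CD4 mean rested on IFNa 23, where 0 of 2 cycling cells had a sister, against 44.1% of non-cycling ones, and without that liver it was positive, at 4.70 points. The CD8 difference was 11.8 points without IFNa 18 and 18.5 to 29.6 points without any 1 of the other livers.

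**Figure D2:**
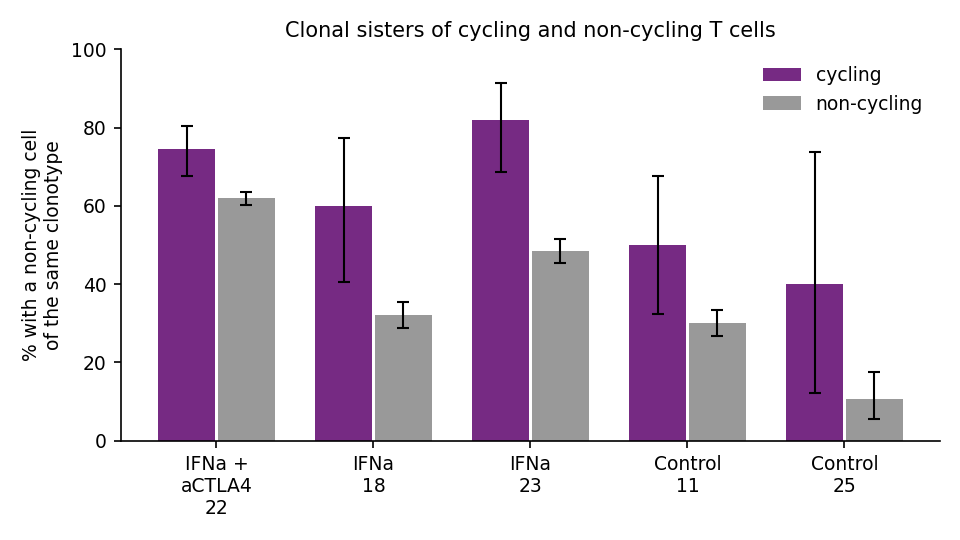
Percentage of cycling and of non-cycling T cells (y axis) that had a non-cycling T cell of the same clonotype in the same liver, by liver (x axis); error bars are exact 95% binomial intervals of the cell counts. The cycling bar stands above the non-cycling bar in each of the 5 livers, by 12.6 points in the IFNa + aCTLA4 liver and by 33.6 points in IFNa 23.

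In all, 198 clonotypes held a cycling cell, and 38 of them held 2 or more, which together accounted for 156 of the 316 cycling cells. The share of cycling cells in such clonotypes was 61.5% in the IFNa + aCTLA4 liver, 46.7% and 34.0% in IFNa 18 and 23, and 14.7% and 20% in Control 11 and 25. The IFNa + aCTLA4 value was the highest and the 2 Control values the lowest, with 192 cycling cells behind the first and 34 and 10 behind the others; the difference between groups was not tested. Clonotypes with 20 or more T cells had 8.74% of their cells cycling in the IFNa + aCTLA4 liver (102 of 1167, interval 7.18 to 10.5), against 3.55% of cells whose clonotype had no other member (45 of 1267, 2.60 to 4.72). Clonotypes of 2 to 4 cells had 4.31% cycling there and those of 5 to 19 cells 4.83%. In IFNa 18 the shares for lone cells and for clonotypes of 2 to 4, 5 to 19, and 20 or more cells were 1.83%, 4.70%, 13.8% and 6.25%. In IFNa 23 they were 1.64%, 12.2%, 4.95% and 4.73%, and in Control 11 they were 3.14%, 6.61%, 6.90% and 7.50%. Control 25 had no clonotype of 5 or more cells, and its first 2 shares were 5.71% and 21.1%. Lone cells had the lowest share in each of the 5 livers, and above that size the share did not rise steadily in IFNa 18 or IFNa 23.

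The clonotypes that cycled most in the IFNa + aCTLA4 liver were CD8 clonotypes. The largest clonotype, TRBV13-3 with TRBJ2-1, had 258 T cells, 22 of them cycling (8.53%, 5.42 to 12.6), and 243 were called CD8. It used 1 alpha chain combination, TRAV6N-6 with TRAJ22, in 229 cells. The clonotype of TRBV3 with TRBJ2-5 had 9 cycling cells of 50 (18%), that of TRBV29 with TRBJ2-5 had 8 of 39 (20.5%), and that of TRBV10 with TRBJ2-3 had 7 of 24 (29.2%). The clonotype of TRBV17 with TRBJ2-1, the second largest of these with 151 cells, had 7 cycling (4.64%, 1.88 to 9.32).

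The clonotype of TRBV10 with TRBJ2-1 had 15 cycling cells of 41 (36.6%, 22.1 to 53.1), an interval above that of the largest clonotype. This clonotype was named for its number of cycling cells, so the comparison of intervals is no test. Of its 41 cells, 14 had UMIs of Cd4 beside those of CD8 chains (34.1%), against 158 of 2185 other CD8-chain-bearing T cells of the same liver (7.23%). These 14 cells had a median of 4 and at most 8 Cd4 UMIs, a median of 19 Cd8a UMIs, and 2 were suspected doublets. None of the 41 cells had a Foxp3 UMI. Of the 15 cycling cells, 10 were called CD8 and 5 both. The Cd4 UMIs of this clonotype were singled out after their values were seen.

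**Figure D3:**
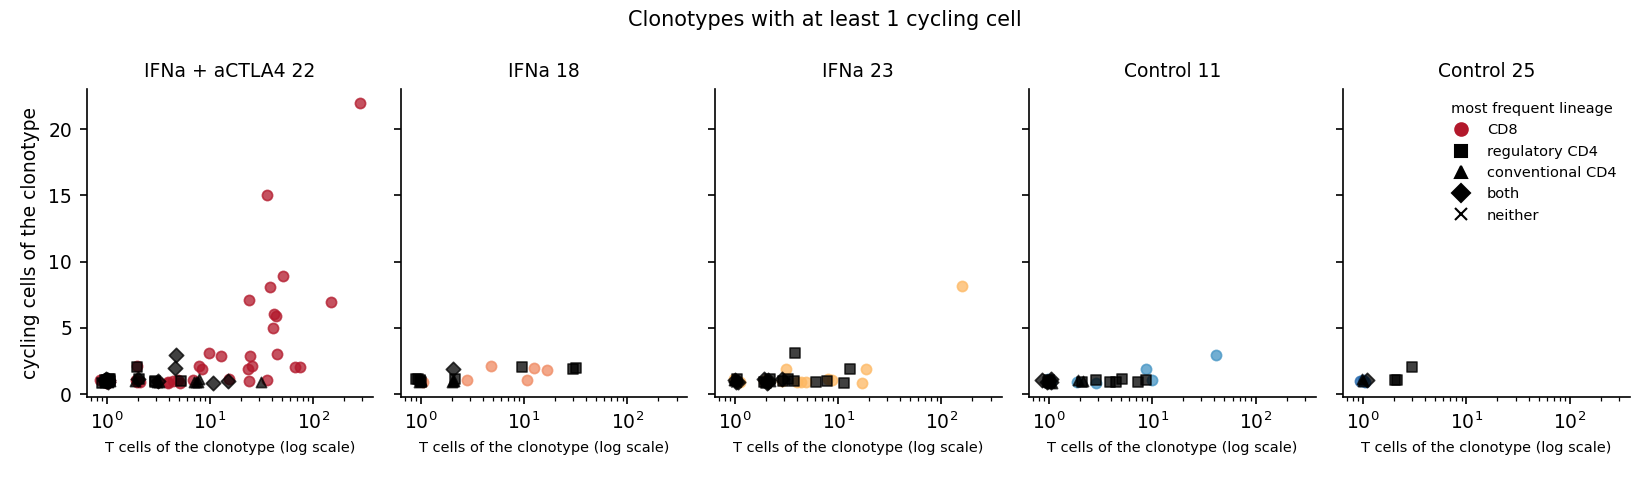
Cycling cells (y axis) against all T cells (x axis, log scale) of each clonotype with at least 1 cycling cell, 1 panel per liver; points are shifted slightly at random to separate them, and symbols give the most frequent lineage of the clonotype, with CD8 in colour. The IFNa + aCTLA4 panel reaches 22 cycling cells in 1 clonotype, and the Control panels reach 3 and 2.

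In IFNa 18, IFNa 23 and Control 25, clonotypes with 2 or more cycling cells included regulatory ones. The IFNa + aCTLA4 liver also had a regulatory clonotype of this kind, TRBV26 with TRBJ2-4, with 2 cycling cells of 2. In IFNa 18, the clonotypes with 2 cycling cells included a regulatory clonotype of 32 T cells (TRBV16 with TRBJ2-7, 23 called regulatory, both cycling cells among them) and another of 32 T cells (TRBJ2-2, 27 called regulatory, 1 of its 2 cycling cells). The clonotype of TRBV23 with TRBJ2-1 had 2 cycling cells of 9, both regulatory. In IFNa 23, 3 of the 4 cells of the regulatory clonotype TRBV1 with TRBJ2-7 were cycling (75.0%, 19.4 to 99.4). In Control 11, the clonotype of TRBV5 with TRBJ2-7, of 40 mostly CD8 cells, had 3 cycling (7.50%). Its only other clonotype with 2 or more cycling cells, TRBV1 with TRBJ2-7, was CD8 too. In Control 25, 2 of the 3 cells of a regulatory clonotype, TRBV5 with TRBJ1-1, were cycling.

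The clonotype with the most cycling cells in IFNa 23 belonged to a beta chain found in several livers. This chain, TRBV16 with TRBJ2-7, had 1 CDR3 amino acid sequence written in 6 nucleotide spellings, which are shown to let the spellings be compared; capitals mark the 3 positions at which they differ.
S1: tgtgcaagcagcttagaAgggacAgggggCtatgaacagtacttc
S2: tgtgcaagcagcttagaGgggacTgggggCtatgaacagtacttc
S3: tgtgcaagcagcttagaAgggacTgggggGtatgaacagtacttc
S4: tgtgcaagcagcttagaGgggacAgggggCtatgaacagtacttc
S5: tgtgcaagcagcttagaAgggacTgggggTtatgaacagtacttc
S6: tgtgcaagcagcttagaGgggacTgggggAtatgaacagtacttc

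The chain was carried by 87 T cells of the IFNa + aCTLA4 liver (2.55%), 29 of IFNa 18 (3.52%), 199 of IFNa 23 (17.7%), 4 of Control 11 (0.506%) and 0 of 124 in Control 25, where the exact 95% interval reaches 2.93%. It cycled in 2 of the 87 cells of the IFNa + aCTLA4 liver (2.30%), 4 of 29 in IFNa 18 (13.8%, 3.89 to 31.7), 9 of 199 in IFNa 23 (4.52%, 2.09 to 8.41) and 0 of 4 in Control 11. The interval in IFNa 18 lay above the 3.64% of all its T cells, on 4 cycling cells, and the chain was chosen after its values were seen. Of the 319 cells, 310 were called CD8. The spellings differed between livers: S1 held 169 cells of IFNa 23 and 13 of IFNa 18, S2 held 78 cells of the IFNa + aCTLA4 liver, S3 was found in 9, 16 and 4 cells of the IFNa + aCTLA4 liver, IFNa 18 and IFNa 23, and S6 held the 4 cells of Control 11. Among its cells with an alpha chain, the segment TRAJ22 was used by 75 of 81 in the IFNa + aCTLA4 liver, 10 of 29 in IFNa 18, 191 of 193 in IFNa 23 and 2 of 2 in Control 11. Among the other CD8 cells the share with TRAJ22 was 18.7% in the IFNa + aCTLA4 liver, 7.85% and 8.19% in the IFNa livers and 7.50% and 5.88% in the Control livers. Altogether 29 of 3450 beta chains were found in 2 or more livers by amino acids, 8 of them with a cycling cell. Invariant natural killer T cells, recognised by their alpha chain, held 1 cycling cell of 92.

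The genes that set cycling cells apart are a description, because the rule chose the cells on UMIs of the same libraries. Of 7458 genes with a mean of at least 20 CPM, 25.2% were higher and 21% lower in cycling than in non-cycling T cells in all 5 livers. All 12 replication licensing genes were higher in all 5 livers, as were all 20 S phase genes and all 9 histone genes. Mcm5, a subunit of the replicative helicase, had 216 CPM in cycling cells of the IFNa + aCTLA4 liver, 181 and 198 in IFNa 18 and 23, and 185 and 151 in Control 11 and 25, against 18.1 to 31.0 CPM in non-cycling cells. The transcription factor E2f1, which turns on S phase genes, differed by 2.49 ± 0.39 on the log2(CPM + 1) scale and its upstream kinase Cdk2 by 2.00 ± 0.16 (SD, n = 5). Of 30 G2 and mitosis genes, 29 were higher in all 5 livers and the securin gene Pttg1 was lower in all 5 (-0.24 ± 0.23).

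Genes of naive and memory T cells were lower as a group, with 10 of 11 measured members lower in all 5 livers and a median log2 difference of -1.87, against -0.02 over all genes. Tcf7, the transcription factor of stem-like and memory T cells, had 59.9 CPM in cycling cells of the IFNa + aCTLA4 liver, 70.8 and 44.0 in IFNa 18 and 23, and 64.1 and 12 in Control 11 and 25, against 180.5 to 328 CPM in non-cycling cells, a difference of -2.52 ± 0.96. The interleukin-7 receptor chain Il7r differed by -1.96 ± 0.72. The cell cycle inhibitor Cdkn1b was also lower in all 5 livers (-0.69 ± 0.26).

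Metabolic and effector genes were split. Of 14 glycolysis and growth genes, 10 were higher in all 5 livers and 0 lower, including lactate dehydrogenase Ldha (0.74 ± 0.25) and the nucleotide kinase Nme1 (0.83 ± 0.14). Of 15 cytotoxic genes, 2 were higher in all 5 livers, Klrg1, an inhibitory receptor of effector and regulatory T cells (1.04 ± 0.43), and the granzyme gene Gzmk (1.02 ± 0.44). In IFNa 18 only 3 cycling cells had Gzmk, and 91.7% of its 36 UMIs there came from 1 barcode. Another 5 cytotoxic genes were lower in all 5 livers, among them the chemokine Ccl5 (-1.15 ± 0.21) and perforin, Prf1 (-0.69 ± 0.43). Granzyme B, Gzmb, was higher in 3 and lower in 2 livers on plain CPM (0.05 ± 0.40). The count depended on the scaling. With TMM scaling Gzmb had 1136 CPM in cycling against 682 in non-cycling cells of the IFNa + aCTLA4 liver. The same pairs were 303 against 360 and 598 against 799 in IFNa 18 and 23, and 267 against 268 and 390 against 410 in Control 11 and 25. None of the 14 checkpoint and exhaustion genes was on 1 side in all 5 livers on plain CPM.

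**Figure D4:**
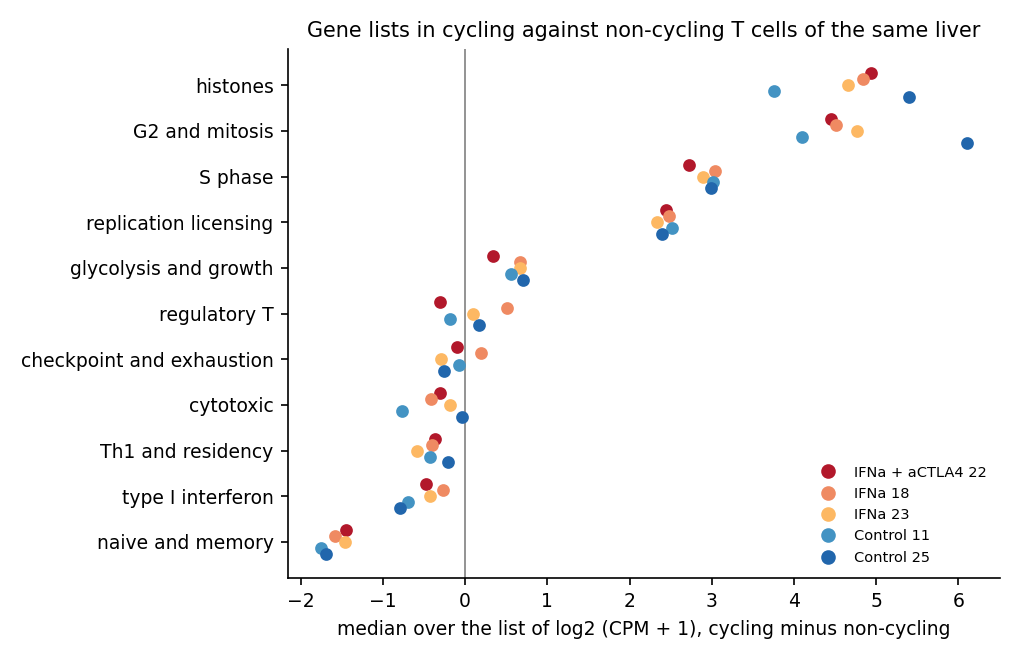
Median over the measured genes of each list of the log2(CPM + 1) difference, cycling minus non-cycling T cells of the same liver (x axis), with 1 point per liver. The naive and memory list lies between -1.76 and -1.45 in all 5 livers, and the replication licensing list between 2.33 and 2.52.

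The treatments changed interferon genes in cycling cells. UMI counts of cycling cells were summed per liver and tested with edgeR over 9467 genes. For IFNa against Control, 40 genes rose (0.423%) and 0 fell, with 331 higher and 195 lower at an unadjusted p under 0.05, and DESeq2 called 31 higher and 1 lower. Without IFNa 18, IFNa 23 or Control 25, edgeR called 158, 96 or 131 genes for IFNa against Control, of which 96, 69 or 70 were higher, and with no filter on low counts 234, of which 145 were higher. For IFNa + aCTLA4 against Control, 61 rose (0.644%) and 10 fell (0.106%), 0.75% in all. Without IFNa 18, IFNa 23 or Control 25, 213, 209 or 243 changed in that comparison, and with no filter on low counts 337. These 2 comparisons share the Control livers. Of 46 type I interferon genes, 21 rose and 0 fell in each comparison with Control, and their median log2 fold changes were 1.92 for IFNa and 1.80 for IFNa + aCTLA4, against -0.01 and -0.02 over all genes. Without suspected doublets 10 rose in each, and among cycling CD8 cells alone 7 rose for IFNa and 8 for IFNa + aCTLA4. Without Control 25 the counts were 34 and 33. DESeq2 called 21 and 13.

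The ubiquitin-like Isg15, a classical interferon-induced gene, had 607 TMM-scaled CPM in cycling cells of the IFNa + aCTLA4 liver, 569 and 669 in IFNa 18 and 23, and 63.7 and 35.7 in Control 11 and 25. All 3 livers given IFNa lay above both Control livers. Its log2 fold change was 3.53 ± 0.29 for IFNa against Control (edgeR adjusted p = 0.00078) and 3.49 ± 0.31 for IFNa + aCTLA4 against Control (edgeR adjusted p = 0.00028). Irf7, a transcription factor of the interferon feedback loop, had 291 CPM in the IFNa + aCTLA4 liver, 272 and 316 in the IFNa livers and 74.9 and 43.6 in the Control livers, with fold changes of 2.19 ± 0.30 for IFNa + aCTLA4 and 2.21 ± 0.27 for IFNa against Control (edgeR adjusted p = 0.0061 and 0.0066). In CD8 cells alone neither Irf7 call held (edgeR adjusted p = 0.388 for IFNa + aCTLA4 and 0.0615 for IFNa). The surface protein Ly6a (Sca-1) had 1800 CPM in the IFNa + aCTLA4 liver, 1520 and 1574 in the IFNa livers and 508 and 638 in the Control livers (log2 fold changes 1.66 and 1.44, edgeR adjusted p = 0.0066 and 0.0122). In CD8 cells alone the IFNa call for Ly6a was lost (edgeR adjusted p = 0.0906).

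Ifit3, an interferon-induced antiviral protein, had 99.2 CPM in the IFNa + aCTLA4 liver, 90.5 and 91.5 in the IFNa livers, and 3.74 and 0 in the Control livers, where its counts were 3 and 0 UMIs. It passed in both comparisons with Control (edgeR adjusted p = 0.00063 for IFNa + aCTLA4 and 0.0026 for IFNa). The most abundant member, Ifi27l2a, had 4817 CPM in the IFNa + aCTLA4 liver, 5395 and 4680 in the IFNa livers and 1158 and 964 in the Control livers, and was chosen after its values were seen. The interferon levels of IFNa + aCTLA4 and IFNa cycling cells were close: 0 of 46 members passed between these groups by edgeR or DESeq2, with a median of -0.03. At an unadjusted p under 0.05 there were 3 members, where 136 of all 9467 genes were higher and 239 lower.

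**Figure D5:**
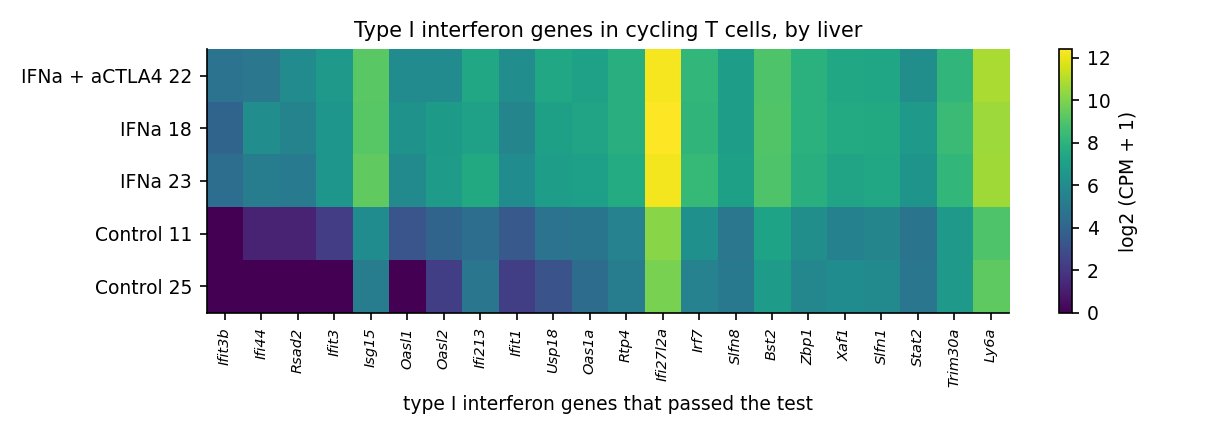
Level of the 22 type I interferon genes that passed in either comparison with Control, as log2 of TMM-scaled CPM + 1 (colour), in cycling T cells of the 5 livers (rows). The 3 upper rows, from livers given IFNa, are brighter than both Control rows for each of the 22 genes, and Ifit3b is at 0 in both Control livers.

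Non-cycling T cells of the same livers gave 33 of 46 interferon genes higher for IFNa and 35 for IFNa + aCTLA4 against Control, with median log2 fold changes of 1.58 and 1.67, where 0.421% and 0.982% of 13540 genes changed. Between IFNa + aCTLA4 and IFNa, 0 of the 46 passed by edgeR in non-cycling cells, where 0.222% of all genes did. Interferon genes were lower in cycling than in non-cycling cells in all 5 livers for 32 of 45 measured members, with a median of -0.57. Isg15 had 579 CPM (plain, not TMM-scaled) in cycling against 685 in non-cycling cells of the IFNa + aCTLA4 liver, 562 against 572 and 666 against 722 in the IFNa livers, and 62.9 against 122 and 35.9 against 101 in the Control livers.

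Outside the interferon list, the chemokine genes Cxcl10 and Ccl1 were also called higher for IFNa against Control, but neither call held under all settings. Cxcl10, a ligand of the chemokine receptor CXCR3, had 116 TMM-scaled CPM in the IFNa + aCTLA4 liver, 81.1 and 157 in the IFNa livers, and 6.24 and 0 in the Control livers. Without suspected doublets its calls were lost (edgeR adjusted p = 0.279 for IFNa + aCTLA4 and 0.955 for IFNa against Control). Ccl1, a ligand of CCR8, had 119 and 791 CPM in the IFNa livers and 7.49 and 0 in the Control livers, where its counts were 6 and 0 UMIs (edgeR adjusted p = 0.0273), with 40.4 CPM in the IFNa + aCTLA4 liver. In non-cycling T cells Ccl1 had 186 and 458 CPM in IFNa 18 and 23, against 182 and 232 in Control 11 and 25. Those CPM were TMM-scaled over the sums of both populations. Of the Ccl1 UMIs in all cycling cells, 49.9% came from 1 barcode, and 37 of the 316 cells had any. With a rule of 1 UMI of each gene its fold change was 0.12 (edgeR adjusted p = 1).

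Between IFNa + aCTLA4 and IFNa cycling cells, 25 genes rose (0.264%) and 5 fell (0.0528%), 0.317% in all. With any 1 of the IFNa or Control livers left out, 72 to 116 changed, and with no filter on low counts 149. Cd7, a surface protein of T and NK cells, had 374 CPM in the IFNa + aCTLA4 liver, against 5.66 and 21.7 in the IFNa livers. The Control livers had 54.9 and 7.93 CPM. The IFNa + aCTLA4 liver was above all 4 others, with log2 fold changes of 4.53 ± 0.52 against IFNa (edgeR adjusted p = 0.00247) and 3.22 ± 0.50 against Control (edgeR adjusted p = 0.0148). UMIs of Cd7 were present in 99 of the 192 cycling cells there, against 2 of 30 and 6 of 50 in the IFNa livers. Among cycling CD8 cells Cd7 had 535 plain CPM in the IFNa + aCTLA4 liver, against 6.82 and 48.4 in IFNa 18 and 23 and 83.2 and 29.4 in Control 11 and 25. DESeq2 did not call the difference from IFNa (adjusted p = 0.9). In non-cycling T cells the livers lay closer together, with CPM TMM-scaled over the sums of both populations. Cd7 had 239 CPM there in the IFNa + aCTLA4 liver, 179 and 223 in IFNa 18 and 23, and 140 and 175 in Control 11 and 25.

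Klrg1 fell to 26.1 TMM-scaled CPM in the IFNa + aCTLA4 liver, against 319 and 134 in the IFNa livers and 226 and 278 in the Control livers. Its log2 fold changes were -3.07 ± 0.48 against IFNa (edgeR adjusted p = 0.0230) and -3.25 ± 0.49 against Control (edgeR adjusted p = 0.0115). Levels of this gene differed by lineage: cycling regulatory cells had 109 plain CPM in the IFNa + aCTLA4 liver, 563 and 213 in the IFNa livers and 381 and 396 in the Control livers, and cycling CD8 cells had 12.6, then 0 and 25.2, then 23 and 250 in the same livers. In CD8 cells alone the fold changes were -0.44 against IFNa and -2.86 against Control (edgeR adjusted p = 1 and 0.757). The growth factor Areg had 11.8 TMM-scaled CPM in the IFNa + aCTLA4 liver, against 119 and 105 in the IFNa livers and 98.6 and 43.6 in the Control livers (log2 fold changes -3.23 and -2.74, edgeR adjusted p = 0.0051 and 0.0127). Both calls were lost without suspected doublets (edgeR adjusted p = 0.626 against IFNa and 0.357 against Control). In CD8 cells alone, with 1.05 plain CPM in the IFNa + aCTLA4 liver and 0 in both Control livers, the fitted fold change against Control was positive (2.94) and did not pass. The interleukin-33 receptor Il1rl1 and the integrin Itgb8 had 10.3 and 12.7 CPM in the IFNa + aCTLA4 liver and fell against Control (-2.53 and -1.96, edgeR adjusted p = 0.0115 and 0.0459). Both calls were lost without suspected doublets (edgeR adjusted p = 0.154 and 0.674). Within cycling regulatory cells, Areg had 122 plain CPM in the IFNa + aCTLA4 liver, 217 and 31.6 in the IFNa livers and 295 and 92.1 in the Control livers. Il1rl1 had 45.0, then 92.1 and 25.3, then 266 and 36.8, and Itgb8 had 68.8, then 66.3 and 67.5, then 133 and 82.9 in the same livers. Lztfl1 also fell in the IFNa + aCTLA4 liver (log2 fold changes -2.04 against IFNa and -1.87 against Control). Within regulatory cells it had 50.3 plain CPM there, 169 and 129 in the IFNa livers and 85.6 and 111 in the Control livers. Within CD8 cells it had 19.2, then 27.3 and 31.0, then 5.74 and 14.7 in the same livers. Of Klrg1, Areg, Il1rl1, Itgb8 and Lztfl1, only Klrg1 and Lztfl1 were lowest in the IFNa + aCTLA4 liver within regulatory cells too. In all, 17 of 192 cycling cells were regulatory in the IFNa + aCTLA4 liver, against 11 of 30 and 16 of 50 in the IFNa livers and 6 of 34 and 4 of 10 in the Control livers.

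Of 15 regulatory genes 0 passed in any of the 3 comparisons, and of 14 checkpoint and exhaustion genes likewise 0 by edgeR. At an unadjusted p under 0.05, 7 regulatory genes differed between IFNa + aCTLA4 and IFNa, where the list's median was -0.78. Over all 9467 genes, 136 were higher and 239 lower at that p in this comparison. Foxp3 had 57.8 CPM in the IFNa + aCTLA4 liver, 170 and 108 in the IFNa livers and 102 and 210 in the Control livers (edgeR adjusted p = 0.334 against Control). Ctla4, the antibody's target, had 493 CPM in the IFNa + aCTLA4 liver, 948 and 844 in the IFNa livers and 523 and 603 in the Control livers (log2 fold change -0.86 against IFNa, edgeR adjusted p = 0.490). Of 16 cytotoxic genes 1 fell, Klrg1, in each comparison of IFNa + aCTLA4 and none rose. Gzmb had 1070 CPM in the IFNa + aCTLA4 liver, 319 and 603 in the IFNa livers and 291 and 420 in the Control livers (log2 fold change 1.61 against Control, edgeR adjusted p = 0.0895).

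Plasma cell genes rose in the IFNa + aCTLA4 sums, where 3 of 5 tested genes of that list passed against Control. Jchain, which joins antibody molecules, had 583 CPM there and was listed at 0 in the other 4 livers, and Mzb1, a plasma cell chaperone partner, had 268 CPM there, 9.43 in IFNa 18 and 0 in the other 3. Their UMIs came from 29 and 19 of the 192 cycling barcodes of that liver, and without suspected doublets, in the 146 barcodes left, Jchain had 4.97 plain CPM (15 UMIs), against 556 with them, and Mzb1 had 1.33 (4 UMIs), against 256. The plasma cell marker list (3 genes) summed to 824 plain CPM in cycling cells of the IFNa + aCTLA4 liver, 14.9 and 0.80 in the IFNa livers and 37.0 and 0 in the Control livers. In non-cycling T cells it summed to 410 CPM in the IFNa + aCTLA4 liver and to 6.42 to 13.3 CPM in the other 4. The protease inhibitor Slpi had 875 TMM-scaled CPM in the IFNa + aCTLA4 liver and 0.80 to 19.8 in the others, with 59.0% of its UMIs from 1 barcode. Without suspected doublets it had 11.9 plain CPM (36 UMIs) in the IFNa + aCTLA4 liver, against 835 with them. The macrophage genes Chil3, Fn1 and Wfdc17, which fell in the IFNa + aCTLA4 liver against Control, could not be tested without suspected doublets. They were then absent from the genes that passed the filter on low counts. Without suspected doublets Chil3 had 0 plain CPM in Control 11 and in Control 25, against 56.7 and 215 with them. Fn1 had 4.82 and 0 plain CPM in Control 11 and 25, against 126 and 27.9 with them. In Control 25 all Chil3 UMIs came from 1 barcode.

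A fit over cycling and non-cycling sums together asked whether a treatment changed genes by different amounts in the 2 populations. Of 13303 genes, edgeR called 1.04% for IFNa against Control, 0.707% for IFNa + aCTLA4 against Control and 0.338% for IFNa + aCTLA4 against IFNa. This fit gave all genes 1 common spread, which makes its p-values too small. limma on the ratio within each liver called 0 genes in all 3 comparisons, with 569, 294 and 186 at an unadjusted p under 0.05. Ctla4 had 903 and 837 CPM in cycling cells of the IFNa livers, against 480 and 560 CPM in those of the Control livers. In non-cycling cells it had 337 and 469 CPM in the IFNa livers, against 584 and 674 CPM in the Control livers. It was therefore above Control in cycling cells of both IFNa livers and below Control in the non-cycling cells. In CD8 cells alone the difference between the 2 effects was -0.20 on the log2 scale, against 1.35 in all cells.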

How the data were processed

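Gene expression and T cell receptor libraries of 5 mouse livers were analysed. The authors deposited raw UMI counts per gene and barcode and receptor contig tables. The submitters' processing notes list Cell Ranger 7.0.1 and the build mm10. Per the labels' protocols, liver metastases were isolated and digested, and viable single cells negative for the dye 7AAD were sorted with no antibody staining. The deposited counts were not normalised.

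Members and gene lists were chosen with earlier results of these data known. Counts were summed per liver over cycling or non-cycling T cells (Python 3.11.15) and tested with edgeR 4.0.16 quasi-likelihood fits in R 4.3.3 (filterByExpr, TMM, Benjamini-Hochberg, threshold 0.05) over all 5 livers, so the 1 IFNa + aCTLA4 liver borrows the spread of the others. DESeq2 1.42.0 was an alternative. Cell counts of 10 lineage and state classes used the same test without TMM. Shares per liver were compared by exact permutation tests, with exact binomial (Clopper-Pearson) 95% intervals. Cells were not treated as replicates.

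Named genes were up to 10 each way per comparison by fold change, with adjusted p under 0.05, at least 50 CPM and no overlap between livers, up to 4 per list, and a fixed set. Named clonotypes were up to 6 per liver with at least 2 cycling cells. The edgeR fit, tested on simulated data for IFNa against Control in cycling cells (9009 genes), recovered 86% of genes changed 4-fold and 12% of genes changed 2-fold. The simulation gave all genes the same spread and changed only genes above a minimum expected count. These shares therefore need not hold for genes with low counts or carried by few cells. Suspected doublets were kept and left out as an alternative. Barcodes thinned to 3000 UMIs, other UMI rules, filters and lineages, and leaving out each liver were the other alternatives.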

Additional observations from a re-analysis of the deposited data

Results flagged for a closer look

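The treatment effect on 8 of the genes named by rule differed between cycling and non-cycling T cells in the edgeR fit over both, which gave all genes 1 common spread. None passed in limma on the ratio within each liver, where adjusted p-values were 0.981 to 1. CPM values below are TMM-scaled over the sums of both populations, and each log2 difference is the effect in cycling minus that in non-cycling cells, with its standard error. Explanations were not tested.

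Gzma, a granzyme, had 1354 CPM in cycling cells of the IFNa + aCTLA4 liver, 101 and 642 in IFNa 18 and 23, and 150 and 1713 in Control 11 and 25. In non-cycling cells it had 367 CPM in the IFNa + aCTLA4 liver, 200 and 440 in the IFNa livers and 316 and 568 in the Control livers. The cycling values of the Control livers lay on either side of the IFNa + aCTLA4 value. In cycling cells, 1 barcode held 80.4% of the Gzma UMIs of IFNa 18 and 38.6% of those of IFNa 23. The top barcode held 48.1% and 48.4% in Control 11 and 25, and 8.28% in the IFNa + aCTLA4 liver. The log2 difference was 1.87 ± 0.25 against IFNa (edgeR adjusted p = 1.54e-10) and 1.44 ± 0.25 against Control (edgeR adjusted p = 6.05e-06). Gzmb differed by 1.01 ± 0.24 against IFNa (edgeR adjusted p = 0.0145).

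Genes that regulatory T cells express at high levels differed as well. For IFNa against Control, the log2 difference was 1.35 ± 0.21 for Ctla4 (edgeR adjusted p = 6.4e-08), 1.28 ± 0.23 for the interleukin-2 receptor chain Il2ra (edgeR adjusted p = 7.71e-06) and 0.76 ± 0.22 for the costimulatory receptor Tnfrsf4 (edgeR adjusted p = 0.0448). For IFNa + aCTLA4 against IFNa it was -1.18 ± 0.24 for Ctla4 (edgeR adjusted p = 0.00070) and -0.95 ± 0.25 for Tnfrsf4 (edgeR adjusted p = 0.0455). The share of regulatory cells among the cycling cells of the livers differed too, and its part in these values was not tested.

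The interferon genes Isg15 and Ifit3 differed more from Control on the log2 scale in cycling than in non-cycling cells. For IFNa against Control the difference was 1.03 ± 0.27 for Isg15 (edgeR adjusted p = 0.0145) and 2.51 ± 0.63 for Ifit3 (edgeR adjusted p = 0.0107), and for IFNa + aCTLA4 against Control it was 2.78 ± 0.63 for Ifit3 (edgeR adjusted p = 0.0032). Ifit3 rests on 3 and 0 UMIs in cycling cells of the Control livers. Ly6c2, a surface protein of activated and memory CD8 cells, differed the other way for IFNa against Control, by -1.42 ± 0.21 (edgeR adjusted p = 1.5e-08). In cycling cells Ly6c2 had 287 and 812 CPM in IFNa 18 and 23, within the 205 and 891 of Control 11 and 25. In non-cycling cells it had 1522 and 1490 CPM in the IFNa livers, against 448 and 535 in the Control livers.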

How the results depend on the processing

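No paired analysis was possible because the groups share no replicate numbers. Counts of changed genes moved with the settings; for IFNa against Control, IFNa + aCTLA4 against Control and IFNa + aCTLA4 against IFNa, with no filter on low counts 234, 337 and 149 genes changed, of which 145, 190 and 75 were higher. With 1 UMI of each gene, 22 changed for IFNa against Control, 22 of them higher. Without suspected doublets 25 were higher for IFNa against Control, 27 changed for IFNa + aCTLA4 against Control (26 higher) and 10 against IFNa (8 higher). In CD8 cells alone 26 changed (23 higher), 41 changed (26 higher) and 16 were higher. DESeq2 called 41 for IFNa + aCTLA4 against Control (34 higher) and 15 higher against IFNa. Leaving out 1 liver gave 36 to 158, 81 to 243 and 72 to 116 changed and 31 to 96, 56 to 128 and 45 to 58 higher. Reversed in CD8 cells alone were Areg (2.94), Lztfl1 (1.39) and the Ctla4 difference (-0.20). The difference between cycling and non-cycling effects was called for 23, 30 and 23 genes with 1 UMI of each gene, 37 and 28 without suspected doublets (the first 2 comparisons), 36, 36 and 22 in CD8 cells, 0, 0 and 0 with limma, and 10 to 168, 71 to 116 and 27 to 67 with 1 liver left out.

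The CD8 minus conventional CD4 difference was -0.087 points after thinning. For cell counts, IFNa against Control gave 0.24 for cycling CD8 with 1 UMI of each gene, and for cycling regulatory cells -0.33 with Cd8a alone, -0.10 thinned and -0.11 with 1 UMI. IFNa + aCTLA4 against Control gave for CD8 0.96 thinned and 1.26 with 1 UMI, for conventional CD4 0.017 with Cd8a alone and 0.24 with 1 UMI, and for regulatory cells -1.79 with 1 UMI and 0.99 against their own lineage. IFNa + aCTLA4 against IFNa gave for CD8 1.30 thinned and 1.02 with 1 UMI, for conventional CD4 -0.063 thinned, and for regulatory cells -1.26 thinned, -1.68 with 1 UMI and 0.050 against their own lineage. With 1 liver left out, CD8 ranged from -0.77 to 0.041 for IFNa against Control, 0.62 to 0.87 for IFNa + aCTLA4 against Control and 0.80 to 1.61 against IFNa; conventional CD4 from -1.75 to 0.63, -1.60 to 0.47 and -0.68 to 1.52; regulatory CD4 from -1.21 to 0.86, -2.67 to -0.60 and -1.50 to -1.40. The share difference ranged from -4.02 to -0.26 points, regulatory minus conventional CD4 from 4.42 to 6.93, regulatory minus CD8 from 2.80 to 5.35, CD8 minus conventional CD4 from 1.53 to 2.67, and the sister difference from 22.5 to 27.8. Within lineages, an alternative chosen after seeing the data, the sister difference ranged from 11.8 to 29.6 for CD8, 4.64 to 28.9 for regulatory and -12.8 to 4.70 for conventional CD4 cells. The causes were not tested. Depth limits Control 25 most, with 10 cycling cells.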
